A study of Mus musculus with 8 samples.

Results

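The nuclei described here are the F13a1 and Mrc1 resident macrophages of the mouse heart, 1997 of 37767 nuclei (5.29%) that passed the quality limits in 5 single-nucleus RNA libraries. Members were chosen by their own counts: a nucleus was a member when it had a UMI (1 counted RNA molecule) of at least 2 of 6 macrophage genes, namely F13a1, Mrc1, Cd163, Csf1r, C1qa and the noncoding RNA F630028O10Rik. It also had fewer than 2 of Cd74, H2-Aa, H2-Ab1, H2-Eb1 and Ccr2, which mark antigen-presenting and monocyte-derived macrophages. Before this, nuclei were limited to those with at least 200 genes and under 5% mitochondrial UMIs. Nuclei with 2% or more of their UMIs from the cardiomyocyte genes Ttn, Ryr2 and Trdn, or with any UMI of Pdgfra (fibroblasts), Cdh5 (endothelium) or Rgs5 (pericytes), were set aside. The 567 nuclei with at least 2 of the 6 macrophage genes and at least 2 of the 5 MHC class II and Ccr2 genes are called MHC class II or Ccr2 nuclei below and serve as the nearest comparison.

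The study profiled nuclei from hearts of female and male mice that were either non-transgenic wild type (nTg) or carried a transgene that keeps cyclin A2 expressed (Tg). Ccna2 is the gene of cyclin A2, which drives DNA replication and entry into mitosis. Of 8 libraries, those labelled nTg female 2 and nTg male 1 and 2 had matrices identical to those of 3 Tg libraries and did not match their own barcode lists, so those libraries were not analysed here. The libraries used were labelled nTg female 1, Tg female 1 and 2, and Tg male 1 and 2, and all values below follow this order. The promoter of the transgene, the age of the mice and the number of hearts per library are not given in the sources used here.

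Resident macrophages of the heart are a tissue population that largely maintains itself by local proliferation and depends on CSF1R, the receptor for the growth factors CSF1 and IL-34. They take up dead cells and cell debris, scavenge haemoglobin and iron, and supply complement C1q. The Lyve1, Timd4 and Folr2 subset is known for low MHC class II and for its position along vessels.

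Ccna2 went against 2 of the labels, and libraries are therefore named by label throughout. In the members Ccna2 stood at 49.2, 1.11, 66.8, 43.2 and 4.19 CPM (counts per 1000000 UMIs), from 51, 1, 54, 55 and 5 UMIs. In all other nuclei of the same libraries it was 198, 0.736, 287, 94.2 and 74.2 CPM. The library labelled nTg female 1 was thus among the high ones and that labelled Tg female 1 was the lowest. The members gave 339, 366, 368, 459 and 465 nuclei, with 1036870, 901743, 808400, 1272293 and 1193060 summed UMIs and median depths of 2756, 2251, 1944, 2473 and 2393 UMIs. Any 2 libraries shared between 14 and 28 barcodes (0.168% to 0.341% of the smaller library).

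The promoters of 14 of the 20 leading genes described below were matched in the RefSeq promoter table (GRCm38.p6), and the 250 bases before each start were searched on both strands for GAGGAAG, a core site of PU.1, the transcription factor that directs myeloid development. It was present in 5 of the 14 genes (35.7%), against 12% of the 27025 genes in the table (10.6% of promoters). These were F13a1, Mrc1, F630028O10Rik, Cbr2 and C1qc. The Cbr2 site, 79 bases before its RefSeq start, lay within the 93 bases of the window that are inside the GENCODE M21 span of Cbr2. TGCTGAC, a core of the sites bound by MAF factors, was present in 0 of the 14 genes, against 4.31% of all genes. The 4 sequences below are shown because 3 belong to genes of the rule and the other to a C1q subunit. They are printed 5′ to 3′ on the strand of the gene, without bases inside its GENCODE M21 span, and the capitals mark GAGGAAG or its reverse complement CTTCCTC. They cover chr13:37050245-37050494 (minus), chr2:14229164-14229391 (plus), chrX:96239676-96239925 (plus) and chr4:136893066-136893164 (minus) of GRCm38.
F13a1: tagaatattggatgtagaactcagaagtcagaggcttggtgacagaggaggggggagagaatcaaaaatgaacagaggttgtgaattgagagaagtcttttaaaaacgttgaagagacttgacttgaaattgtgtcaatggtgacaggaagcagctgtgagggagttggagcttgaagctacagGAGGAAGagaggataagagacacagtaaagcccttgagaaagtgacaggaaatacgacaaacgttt
Mrc1: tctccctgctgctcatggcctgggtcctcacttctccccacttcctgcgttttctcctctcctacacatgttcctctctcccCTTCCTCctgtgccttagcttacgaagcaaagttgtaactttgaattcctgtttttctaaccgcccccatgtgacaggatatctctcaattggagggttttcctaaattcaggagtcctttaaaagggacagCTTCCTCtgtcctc
F630028O10Rik: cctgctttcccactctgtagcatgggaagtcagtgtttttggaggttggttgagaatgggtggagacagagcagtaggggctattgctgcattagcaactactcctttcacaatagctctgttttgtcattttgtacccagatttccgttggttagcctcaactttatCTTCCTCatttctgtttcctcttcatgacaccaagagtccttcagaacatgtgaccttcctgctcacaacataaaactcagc
C1qc: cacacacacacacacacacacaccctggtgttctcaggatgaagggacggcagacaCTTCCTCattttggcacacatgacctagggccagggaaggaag
F13a1 held the site once, 66 bases before the start shown, on the strand of the gene, and the 250 bases before a second F13a1 start in the table (chr13:37049214-37049463) held none. Mrc1 held it at 168 and 36 bases, F630028O10Rik at 82 bases and C1qc at 194 bases before the RefSeq start, each on the opposite strand. The printed Mrc1 and C1qc sequences stop 22 and 151 bases short of that start, because those bases lie inside the GENCODE M21 spans. The search shows letters only, and no binding was measured.

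The genes of the rule marked the members in each library, as the rule requires, and are given as a description. F13a1 encodes the catalytic A subunit of coagulation factor XIII, which cross-links fibrin (chromosome 13, 36867178 to 37050244, minus strand of GRCm38, in GENCODE M21), and was at 6953, 5895, 4305, 5574 and 5904 CPM in the members against 150.0, 89.3, 119.8, 130.2 and 120.3 CPM in all other nuclei. Mrc1, the mannose receptor CD206 (chromosome 2, 14229392 to 14332057, plus strand), was at 3840.4, 3361, 2762, 3533 and 3952 CPM. Cd163, the scavenger receptor for haemoglobin and haptoglobin (chromosome 6, 124304656 to 124330527, plus strand), was at 1275, 1086, 883, 1326 and 1341 CPM. These 3 genes were lowest in Tg female 2. Csf1r (chromosome 18, 61100598 to 61132149, plus strand) was at 761, 787, 611, 963 and 932 CPM. C1qa, a chain of the complement starter C1q (chromosome 4, 136895917 to 136898803, minus strand), was at 1621, 1515, 668, 1618 and 1317 CPM, and F630028O10Rik, an antisense RNA on the X (chromosome X, 96239926 to 96243636, plus strand), was at 1116, 1514, 1466, 707 and 891 CPM. C1qa was again lowest in Tg female 2, while F630028O10Rik was lower in both male libraries than in each female one.

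Detection was compared at equal depth by drawing 1000 UMIs from each nucleus, which left out 4, 21, 21, 24 and 20 shallower members. F13a1 was then found in 93.7, 88.4, 84.7, 91.5 and 93.03% of members and in 2.06, 1.19, 2.37, 1.67 and 1.78% of nuclei with 2 or more Pdgfra UMIs, a fibroblast group that should lack it. The unthinned shares were 97.1, 91.5, 86.7, 94.1 and 95.5% of members and 3.16, 2.56, 3.33, 2.64 and 3.1% of the Pdgfra nuclei, whose median depths were 3299, 2941, 2257, 3193 and 3025 UMIs. Mrc1 was found in 90.7, 88.7, 86.7, 90.1 and 91.9% of thinned members against 1.82, 1.26, 2.57, 0.903 and 1.47%. C1qa was found in 70.1, 72.8, 48.1, 71.7 and 67.9% of thinned members against 1.9, 0.863, 3.62, 1.25 and 1.47%, so that Tg female 2 was the lowest in the members and the highest in the Pdgfra nuclei. The plot of detection by gene shows the same order for C1qb and C1qc.

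**Figure D1:**
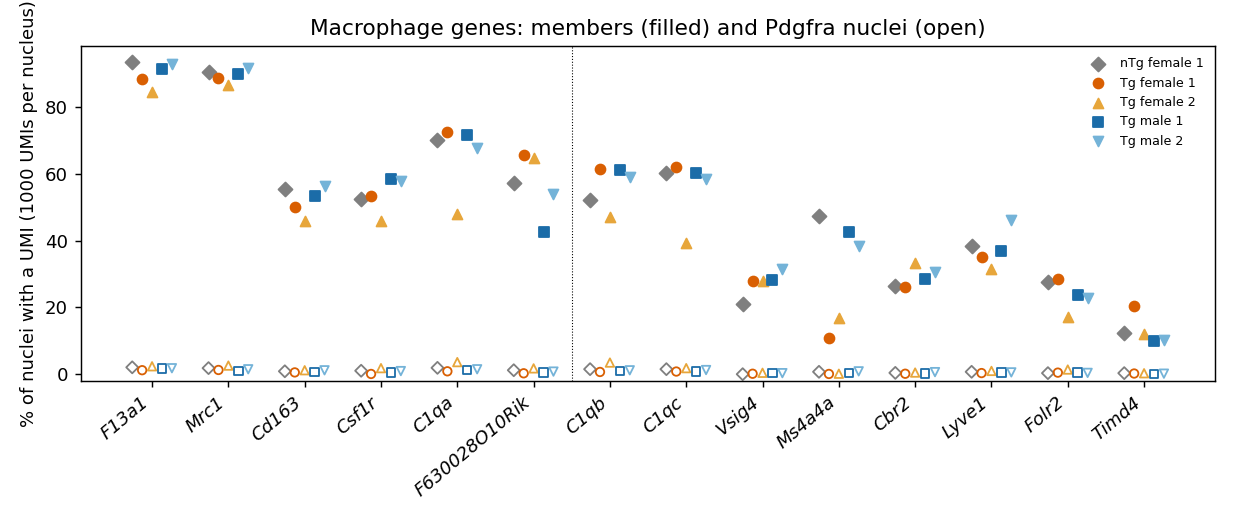
Share of nuclei with at least 1 UMI of each macrophage gene (y axis, %, after thinning to 1000 UMIs per nucleus) in each library, for members (filled) and nuclei with 2 or more Pdgfra UMIs (open). The 6 genes left of the dotted line belong to the member rule. The Pdgfra nuclei stay under 4% for every gene, and Ms4a4a in Tg female 1 and Tg female 2 (10.7% and 16.7%) lies under its other 3 libraries.

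Nuclei with more of the rule genes also carried other resident genes more often. Within the same limits and with fewer than 2 MHC class II or Ccr2 genes, 6764 nuclei had none of the 6 macrophage genes, 603 had exactly 1 and 74, 138, 282, 712 and 791 had 2 to 6. Of the 603 nuclei just outside, 37.3% had their single gene in C1qa and 24.05% in Mrc1, and Tg female 2 supplied 223 of them. Cbr2, a carbonyl reductase that the rule did not use, was found in 0.995% of nuclei with 1 macrophage gene, 10.8% of those with 2, 31.2% of those with 3 and 61.9% of those with all 6. Median depth was 2164 UMIs with 1 gene, 1512.5 with 2 and 2800 with 6. At the other limit, the members with 1 of the 5 MHC class II and Ccr2 genes numbered 38, 58, 67, 63 and 35, and the excluded nuclei with exactly 2 numbered 20, 36, 36, 14 and 17.

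Beyond the rule, other macrophage genes were also far above all other nuclei in the members. Only genes with at least 50 CPM in the members of every library were considered, with no such floor in the other nuclei. The counts therefore favour genes high in the members and are descriptions. Of the 3392 such genes, 801 were at least 2-fold and 215 at least 8-fold above all other nuclei in 5 of 5 libraries. Vsig4, a complement receptor of phagocytes, led them with a median log2 ratio of 5.86 (5.05 to 6.07) over the 5 libraries (lowest to highest library in parentheses), at 303, 432, 454, 452 and 487 CPM. Vsig4 was lowest in nTg female 1 and within a narrow range in the 4 Tg libraries. C1qb and C1qc, the other C1q chains, had ratios of 5.22 (3.81 to 5.46) and 5.19 (4.01 to 5.56), Cbr2 had 5.33 (4.87 to 5.59), and C5ar1, the receptor for the complement fragment C5a, had 5.12 (4.73 to 5.47). Lilrb4a, an inhibitory receptor of myeloid cells, had 5.15 (4.59 to 5.45), and its neighbour Lilr4b had 5.22 (4.75 to 5.54). All 6 rule genes were among these 20 leading genes, F13a1 in the third place and Csf1r in the last.

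Many of the leading genes sat side by side in the genome. Within 500 kb of another leading gene lay 14 of the 20, all on 5 chromosomes. On the X, F630028O10Rik, Vsig4 and Hsf3, a heat shock transcription factor, followed each other, with gaps of 3.57 kb and 12.7 kb. On chromosome 13, the noncoding Gm30489 lay inside the span of F13a1 and Gm49144 overlapped it, both on the opposite strand. C1qa, C1qc and C1qb lay within a short stretch of chromosome 4, with gaps of 2.85 kb and 3.62 kb. Ms4a4a, Ms4a6b and Ms4a6d, of a family of 4-span membrane proteins, lay together on chromosome 19, and Lilr4b and Lilrb4a 4.25 kb apart on chromosome 10. Whether the counting used strand is not given in the sources used here, so reads of F13a1 and those of Gm30489 and Gm49144, and likewise of the other overlapping pairs named below, cannot be told apart.

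Markers of other cell types were summed over lists of 10 genes each. Cardiomyocyte transcripts were at 1862 to 3184 CPM in the members against 8698 to 12085 CPM in all other nuclei, and fibroblast transcripts at 575 to 1508 CPM against 5087 to 6332 CPM. Endothelial markers summed to 336 to 682 CPM against 2124 to 2527 CPM, and pericyte and smooth muscle markers to 69.9 to 221 CPM against 707 to 993 CPM. The rule itself set limits on genes of these 4 types. Of the T and NK list, 2 to 8 of 10 markers were at 0 UMIs per library, Ncr1 and Klrb1c in each, and the sum was 3.14 to 19.3 CPM against 12.02 to 21.3 CPM in all other nuclei, slightly above them in nTg female 1 (19.3 and 18.8) and below them in the 4 Tg libraries. Of the neutrophil and monocyte list 7 of 10 were at 0 in every library, among them Ly6g and Ly6c2. The B list summed to 552 to 1404 CPM, against 1286 to 1631 CPM in all other nuclei, with Pax5 at 0 in every library. The dendritic list was higher in the members than in all other nuclei in 5 of 5 libraries, at 148 to 248 CPM against 120.1 to 154 CPM, with Xcr1, Cd209a or Ccr7 among the 2 to 4 markers at 0. It was higher still in the MHC class II or Ccr2 nuclei, at 212 to 342 CPM. The mast and Schwann list summed to 23.1 to 74.2 CPM against 332 to 430.4 CPM. Doublets called by scrublet made up 3.83% to 8.47% of the members and were kept in the values given here.

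The members were mixed for the Lyve1, Timd4, Folr2 and Cbr2 subset, which the rule did not use. Lyve1, a hyaluronan receptor, was at 632, 589, 437, 609 and 799 CPM. Timd4, a receptor for phosphatidylserine on dying cells, was at 111, 254, 118, 104 and 109.8 CPM. Folr2, a folate receptor, was at 339, 376, 220.2, 336 and 267 CPM. Lyve1 and Folr2 were lowest in Tg female 2, and Timd4 stood out in Tg female 1. At 1000 UMIs per nucleus, at least 1 of the 4 genes was found in 66.0%, 68.4%, 62.5%, 62.99% and 68.8% of members, with exact 95% binomial (Clopper-Pearson) limits of 57.2% at the lowest and 73.3% at the highest. The libraries labelled Tg were at 65.5% ± 4.15 in females and 65.9% ± 4.08 in males (SD, n = 2 each), a difference of -0.405 percentage points (exact two-sided permutation p = 0.667). The sign of this difference turned with the rule and with the libraries used, and the share of nuclei with at least 2 of the 4 genes was 29.6%, 28.7%, 25.9%, 27.4% and 32.8%.

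Members with a UMI of the subset genes carried other genes of resident identity more often than members without. In the thinned nuclei, Maf, a transcription factor of mature macrophages, was found in 78.4% of the former and 65.8% of the latter (means of 5 libraries), and was more frequent in 5 of 5 libraries. Selenop, a selenium carrier, was found in 56.6% and 43.9%, and Ccl24, a chemokine for eosinophils, in 12.3% and 4.96%, each more frequent in 5 of 5 libraries. Of the rule genes, F13a1, Mrc1, C1qa and F630028O10Rik were more frequent in 5 of 5 and Cd163 and Csf1r in 4 of 5. Zbtb16, a zinc finger transcription factor, went the other way in 5 of 5 libraries, at 29.3% and 36.1%. Cx3cr1, the fractalkine receptor, was at 7.18% and 10.01% and was lower in 4 of 5. These are differences between nuclei of the same library and carry no test.

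**Figure D2:**
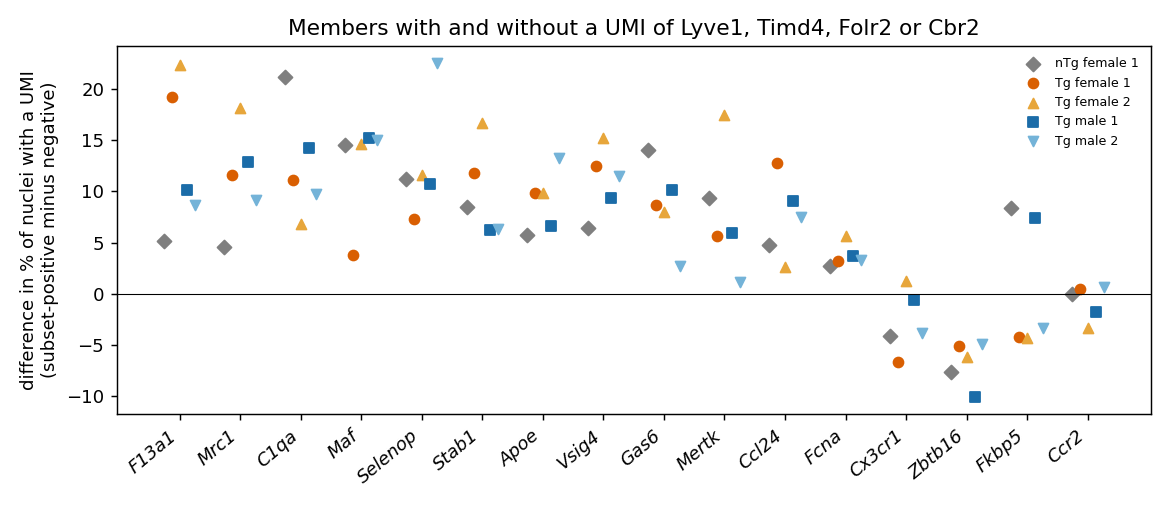
Difference in the share of thinned members with a UMI of each gene (y axis, percentage points) between members with and without a UMI of Lyve1, Timd4, Folr2 or Cbr2, one point per library. Points above 0 mean more frequent detection in subset-positive nuclei. Maf, Selenop, Stab1 and Ccl24 lie above 0 and Zbtb16 below 0 in 5 of 5 libraries, while Fkbp5 and Ccr2 lie on both sides.

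Against the MHC class II or Ccr2 nuclei of the same libraries, few genes passed a 2-fold limit in 5 of 5 libraries. The MHC class II or Ccr2 sums held 202362 to 351579 UMIs from 80 to 157 nuclei per library. The part of this depth in the counts was not tested. Of 10677 genes with at least 10 CPM in 1 of these classes, rule genes left out, 23 (0.215%) were at least 2-fold higher in the members in 5 of 5 libraries and 71 (0.665%) at least 2-fold lower. Since the classes were cut by measured genes, the counts are descriptions. Slc40a1, the iron exporter ferroportin, was at 104, 216, 115, 102 and 127 CPM in the members and 48.5, 42.7, 16.97, 30.5 and 29.6 CPM in the MHC class II or Ccr2 nuclei (median log2 ratio 2.06). Lyve1 (1.47), Hsf3 (1.41) and Ltc4s, the leukotriene C4 synthase (1.19), were higher in the members as well. Dnm1, a dynamin, had a ratio of 3.94 and was at 35.7, 60.99, 53.2, 61.3 and 57.8 CPM in the members against 0, 11.4, 12.7, 3.05 and 0 CPM. Jph1, a gene of the cardiomyocyte membrane junctions, had a ratio of 2.84 and 9, 3, 5, 45 and 4 UMIs in the members.

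Some of the 71 lower genes had few or no UMIs in the members. Itgax, the integrin CD11c, had 0 UMIs in the members of each library and 25.7, 17.1, 29.7, 15.3 and 49.4 CPM in the MHC class II or Ccr2 nuclei. With 3 UMIs as the limit of a count of 0 per library, Itgax in the members was below 3.71 CPM in the shallowest library. Cd209a, a lectin of dendritic cells, had 0, 0, 0, 1 and 0 UMIs in the members and 31.4, 28.4, 12.7, 58.03 and 69.2 CPM in the other class. Ciita, the activator of MHC class II transcription, had a median log2 ratio of -3.97, H2-DMb1, which loads peptides on MHC class II, -3.42, and Mmp12, the macrophage elastase, -4.00. Flt3, a growth factor receptor of dendritic cells, was at 3.86, 0, 0, 5.5 and 5.03 CPM in the members against 34.2, 22.8, 16.97, 42.8 and 34.6 CPM. That Itgax, Cd209a and Flt3 were below the MHC class II or Ccr2 nuclei in every library follows from how the lower genes were chosen. It is no separate result.

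The share of members was lower in both female than in both male libraries labelled Tg. It was 5.42% of nuclei in nTg female 1, 3.77% and 5.26% in the female and 5.78% and 6.78% in the male Tg libraries, with Clopper-Pearson limits of 4.88% to 6.02%, 3.40% to 4.16%, 4.75% to 5.81%, 5.28% to 6.32% and 6.20% to 7.40%. The groups were at 4.51% ± 1.06 and 6.28% ± 0.707 (SD, n = 2 each), a difference of -1.77 percentage points (exact two-sided permutation p = 0.333, the smallest that 2 against 2 allows, Benjamini-Hochberg adjusted p = 0.5 over the 3 shares compared). The MHC class II or Ccr2 nuclei made up 23.7%, 30.02%, 23.01%, 20.03% and 14.7% of all macrophage nuclei, 26.5% ± 4.95 in female and 17.4% ± 3.79 in male Tg libraries (SD, n = 2 each). This difference of 9.16 points also had an exact two-sided permutation p of 0.333 (adjusted 0.5). With nTg female 1 counted as female it was 8.20 points (exact permutation p = 0.1, the smallest that 3 against 2 allows), and the difference in the share of members was -1.46 points (exact permutation p = 0.2).

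**Figure D3:**
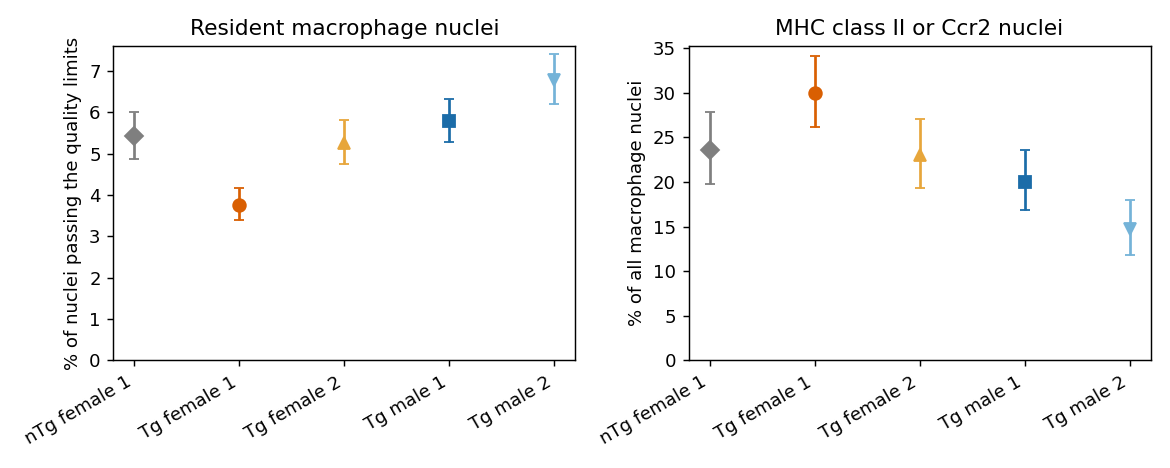
Members as a share of nuclei that passed the quality limits (left) and MHC class II or Ccr2 nuclei as a share of all macrophage nuclei (right), in %, one point per library with its 95% Clopper-Pearson interval, which covers counting error only. The 2 male libraries lie above the 3 female ones on the left and below them on the right.

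Few genes separated the sexes within the members. UMIs were summed over the members of each of the 4 libraries labelled Tg and compared with the edgeR quasi-likelihood test at a Benjamini-Hochberg adjusted p of 0.05. Since Ccna2 went against the label of Tg female 1, it is not known whether the female libraries labelled Tg share a genotype. In this and the other comparisons of the sexes, differences of sex and of genotype may therefore be mixed, which was not tested. Of 10594 genes, 28 (0.264%) were called, 12 higher (0.113%) and 16 lower (0.151%) in females, and 22 of them were autosomal. The others were Xist and Tsix on the X and Uty, Ddx3y, Eif2s3y and Kdm5d on the Y. Xist was at 2021, 2139, 1906, 0 and 0 CPM and Uty at 0.964, 0, 0, 233 and 269 CPM, which matched the labelled sex in all 5 libraries. An unadjusted p under 0.05 was reached by 874 genes, and the female and male libraries did not overlap for 37.2% of all genes tested. Both held for 855 genes (8.07%). DESeq2 called 42 genes, 24 of them among the 28.

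Of the 10 autosomal genes higher in females, Gm16183 and Cacna1a had the lowest adjusted p. Cacna1a, the pore subunit of the P/Q-type calcium channel (chromosome 8, 84388440 to 84640246, plus strand), was at 124, 556, 524, 111 and 148 CPM in the members. Both female Tg libraries were several-fold above the other 3, and nTg female 1 lay between the 2 male libraries. The means were 540.0 ± 21.99 CPM in Tg females and 129 ± 25.9 CPM in Tg males (SD, n = 2 each) (log2 difference 2.04, SE 0.23, edgeR adjusted p = 0.000821). Gm16183, a noncoding gene on the opposite strand within the Cacna1a span, followed it at 16.4, 129, 179, 18.1 and 26.8 CPM (log2 difference 2.75, SE 0.28, edgeR adjusted p = 0.000391). Again nTg female 1 was with the males, slightly below both. In all other nuclei Cacna1a was at 56.9, 47.6, 76.2, 46.3 and 52.1 CPM and Gm16183 at 15.8, 13.3, 27.4, 15.7 and 15.2 CPM.

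The chemokine Ccl2, which attracts monocytes through CCR2, was higher in females. It was at 51.1, 55.4, 86.6, 16.5 and 11.7 CPM, from 53, 50, 70, 21 and 14 UMIs in 23, 30, 38, 15 and 9 nuclei, with every female library above both male ones, nTg female 1 included. The means were 71.02 ± 22.02 CPM in Tg females and 14.1 ± 3.37 CPM in Tg males (SD, n = 2 each) (log2 difference 2.28, SE 0.34, edgeR adjusted p = 0.0103). The difference was not particular to the members. Ccl2 means in Tg females and Tg males were 63.7 and 17.9 CPM in the MHC class II or Ccr2 nuclei. They were 9.08 and 4.29 CPM in all other nuclei. Neither interaction of sex and class was called (edgeR adjusted p = 0.998 and 0.536). Gm17268, which overlaps Ccl2 on the opposite strand, was at 68.5, 76.5, 147, 30.7 and 13.4 CPM (log2 difference 2.29, SE 0.37, edgeR adjusted p = 0.023). Of the 14 chemokines and chemokine receptors tested, Ccl2 was the only one called, and the list's median log2 difference was 0.55 against 0.01 over all genes. Ccl7, another CCR2 ligand, was at 9.64, 13.3, 39.6, 5.5 and 7.54 CPM (log2 difference 1.96, SE 0.56, edgeR adjusted p = 0.248), and Ccl4, an inflammatory chemokine, at 7.72, 16.6, 37.1, 3.14 and 7.54 CPM (log2 difference 2.28, SE 0.57, edgeR adjusted p = 0.177). Neither passed the threshold, although the female Tg libraries lay above the male ones for both. Of the 14 genes, 9 had a positive and 5 a negative log2 difference. Ccl8 was lower in both female than in both male Tg libraries (log2 difference -1.69, SE 0.59, edgeR adjusted p = 0.4).

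Nrcam, a neural cell adhesion molecule, was also high in every female library. It had 53, 33, 30, 0 and 3 UMIs in the members, or 51.1, 36.6, 37.1, 0 and 2.51 CPM (log2 difference 4.76, SE 0.67, edgeR adjusted p = 0.00684). The fitted value rests on Tg male 1 with 0 UMIs and is no bound. Pilra, an inhibitory receptor of myeloid cells, was at 22.2, 59.9, 43.3, 14.1 and 9.22 CPM (log2 difference 2.11, SE 0.37, edgeR adjusted p = 0.0384), with nTg female 1 between the female and the male Tg libraries. Outside the members, the MHC class II or Ccr2 nuclei had Pilra means of 85.9 CPM in Tg females and 35.4 CPM in Tg males. Their Nrcam means were 19.2 and 2.47 CPM. All other nuclei were at 2.58 and 0.82 CPM for Pilra and at 5.03 and 4.95 CPM for Nrcam. The call of Pilra was lost without Tg female 1 (adjusted p = 0.0697), without Tg male 2 (0.0799) and without doublets (0.0714), at log2 differences of 1.82, 1.85 and 2.10.

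The remaining 4 genes called higher in females were genes that the other nuclei of the heart carried at higher levels than the members did. Igfbp7, a secreted binding protein of vessels and stroma, was at 47.3, 113, 169, 50.3 and 56.996 CPM in the members (log2 difference 1.37, SE 0.25, edgeR adjusted p = 0.0421) against 477, 585, 408, 478 and 380.2 CPM in all other nuclei. Erbb4, the neuregulin receptor, was at 65.6, 52.1, 58.1, 15.7 and 15.9 CPM (log2 difference 1.77, SE 0.31, edgeR adjusted p = 0.042), and 1 nucleus of each library gave 53, 16, 22, 7 and 10 of its 68, 47, 47, 20 and 19 UMIs. Csmd1, a membrane regulator of complement, had 0, 12, 27, 1 and 2 UMIs (log2 difference 4.09, SE 0.75, edgeR adjusted p = 0.0421), of which 1 nucleus of Tg female 2 held 25. Cdh19, a cadherin, had 7, 19, 17, 2 and 3 UMIs (log2 difference 3.28, SE 0.61, edgeR adjusted p = 0.045), of which 1 nucleus of Tg female 2 held 11. The calls of Igfbp7 and Erbb4 were lost without Tg male 1 (adjusted p = 0.164 and 0.0512), without Tg male 2 (0.116 and 0.0734) and without doublets (0.323 and 0.699). The log2 differences in these fits were 1.25 and 1.73, 1.46 and 1.78, and 1.74 and 1.40. That of Csmd1 was lost without Tg female 2 (0.410), and that of Cdh19 whichever library was left out (0.0897 to 0.165), at log2 differences of 3.33 and of 2.96 to 3.62. In the same members the summed fibroblast markers were at 818, 906, 1508, 622 and 575 CPM, higher in the female than in the male Tg libraries. The mast and Schwann list, which holds Cdh19 itself, was at 23.1, 42.1, 74.2, 30.7 and 24.3 CPM, in the same direction. The part of these markers in the calls was not tested.

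Among the 12 autosomal genes lower in females, several are known to respond to glucocorticoids. Ddit4, an inhibitor of mTORC1 signalling induced by glucocorticoids and stress (chromosome 10, 59949669 to 59951834, minus strand), was at 67.5, 3.33, 7.42, 77.8 and 63.7 CPM, from 70, 3, 6, 99 and 76 UMIs. The 2 female Tg libraries were far below the other 3, and nTg female 1 was at the male level. The means were 5.37 ± 2.9 CPM in Tg females and 70.8 ± 9.98 CPM in Tg males (SD, n = 2 each) (log2 difference -3.74, SE 0.40, edgeR adjusted p = 0.000559). Zbtb16 was at 636, 131, 210.3, 842 and 856 CPM (log2 difference -2.34, SE 0.26, edgeR adjusted p = 0.000821), and Fkbp5, a co-chaperone that dampens the glucocorticoid receptor, at 1508, 251, 477, 1618 and 1169 CPM (log2 difference -1.97, SE 0.32, edgeR adjusted p = 0.023). Hif3a, a hypoxia-inducible factor subunit, was at 28.9, 5.54, 9.9, 32.2 and 60.3 CPM (log2 difference -2.60, SE 0.47, edgeR adjusted p = 0.0421). The library labelled nTg female 1 lay above both female Tg libraries for each of these 3 genes, within the male range for Fkbp5 and below it for Zbtb16 and Hif3a. The call of Hif3a was lost without Tg female 1 (adjusted p = 0.0718) and without Tg male 2 (0.148), and that of Fkbp5 without doublets (0.0709), at log2 differences of -2.27, -2.08 and -1.94.

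The list of glucocorticoid-responsive genes, drawn up with earlier results of these data known, had 19 of its 20 members tested. Of these, 4 were called lower and 0 higher in females, the ones just named, against 0.151% of all genes called lower. With 1 library left out, 3 to 6 were called lower and 0 higher, and with nTg female 1 added to the females 0 were called. The list's median log2 difference was -0.86, against 0.01 over all genes tested, with 11 negative and 8 positive values. Tsc22d3, which encodes the glucocorticoid-induced leucine zipper, was at 692, 203, 271, 716 and 438 CPM (log2 difference -1.31, SE 0.27, edgeR adjusted p = 0.0707). Dusp1, a MAP kinase phosphatase, was at 81.01, 22.2, 29.7, 62.9 and 56.2 CPM (log2 difference -1.23, SE 0.29, edgeR adjusted p = 0.136), and Klf9, a Krüppel-like factor, at 177, 102, 101, 187 and 177 CPM (log2 difference -0.86, SE 0.21, edgeR adjusted p = 0.147). Per1, a clock gene with glucocorticoid-responsive elements, was at 129, 39.9, 82.9, 150.1 and 122 CPM (log2 difference -1.19, SE 0.29, edgeR adjusted p = 0.156). These 4 missed the threshold, and their female Tg libraries lay below their male ones and below nTg female 1. Nr3c1, the glucocorticoid receptor itself, was at 299, 410.3, 344, 332 and 304 CPM (log2 difference 0.22, SE 0.21, edgeR adjusted p = 0.891).

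Lower levels in the female Tg libraries were also seen outside the members. In all other nuclei of the same libraries Ddit4 was at 53.7, 8.3, 20.2, 50.3 and 38.2 CPM, Fkbp5 at 451, 114, 194, 501 and 527 CPM and Zbtb16 at 1642, 515, 781, 1695 and 1616 CPM, each lower in the female than in the male Tg libraries. There nTg female 1 lay above both male libraries for Ddit4 and between them for Zbtb16. For Fkbp5 it lay above the female and below the male Tg libraries. The interaction of sex and class, which asks whether the sex difference in the members departs from that in all other nuclei, gave edgeR adjusted p-values of 0.188 for Ddit4, 1 for Fkbp5 and 0.28 for Zbtb16.

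**Figure D4:**
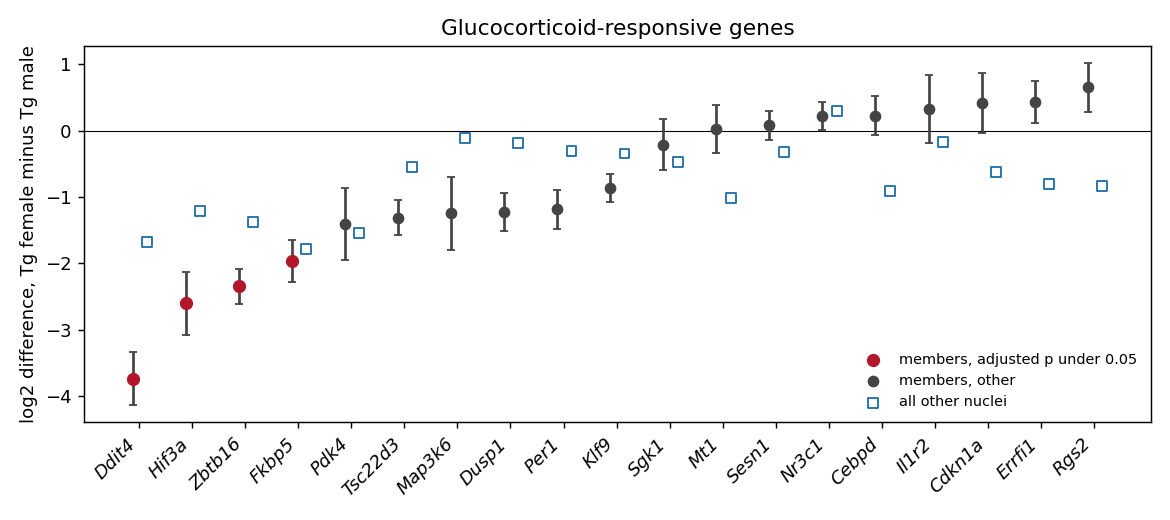
Female minus male log2 difference of the 19 tested glucocorticoid-responsive genes in the libraries labelled Tg. Circles are edgeR estimates in the members (bars, SE; red, adjusted p under 0.05), and open squares are differences of mean log2(CPM + 1) in all other nuclei, with no test. Ddit4, Hif3a, Zbtb16 and Fkbp5 are lowest in the members, and their squares are below 0 as well.

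The other 8 autosomal genes lower in females had varied roles. Man2a1, a Golgi mannosidase of N-glycan processing, was at 686, 248, 218, 871 and 718 CPM (log2 difference -1.79, SE 0.24, edgeR adjusted p = 0.00421). Ms4a4a, one of the 20 leading genes and a surface protein of tissue macrophages (chromosome 19, 11375523 to 11392790, plus strand), was at 881, 145, 214, 608 and 535 CPM (log2 difference -1.70, SE 0.24, edgeR adjusted p = 0.00684). The 2 female Tg libraries were the lowest and nTg female 1 the highest of the 5 for Ms4a4a. Lrp6, a Wnt co-receptor, was at 329.8, 214, 200.4, 481 and 438 CPM (log2 difference -1.17, SE 0.21, edgeR adjusted p = 0.0421), and Ucp2, a mitochondrial carrier, at 148, 63.2, 60.6, 165 and 129.9 CPM (log2 difference -1.27, SE 0.23, edgeR adjusted p = 0.0421). Anapc16, a subunit of the anaphase-promoting complex that lies 35.6 kb from Ddit4, was at 89.7, 52.1, 49.5, 108 and 168 CPM (log2 difference -1.47, SE 0.27, edgeR adjusted p = 0.0421). Slc16a14, of the monocarboxylate transporter family, Strip2, of the STRIPAK complex, and Arhgef37, a guanine nucleotide exchange factor, fell by 1.58, 2.38 and 2.28 on the log2 scale (edgeR adjusted p = 0.0253, 0.0384 and 0.0384). The MHC class II or Ccr2 nuclei also had a lower mean in Tg females than in Tg males for each of these 8 genes. These means were 75.8 and 262 CPM for Ms4a4a and 255 and 818 CPM for Man2a1. Without Tg male 1 the calls of Lrp6 (adjusted p = 0.230) and Ucp2 (0.185) were lost, and without Tg male 2 those of Lrp6 (0.194), Ucp2 (0.0543), Anapc16 (0.304) and Strip2 (0.0567). The log2 differences were then -1.12 and -1.11 without Tg male 1 and -1.23, -1.43, -1.11 and -2.33 without Tg male 2.

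**Figure D5:**
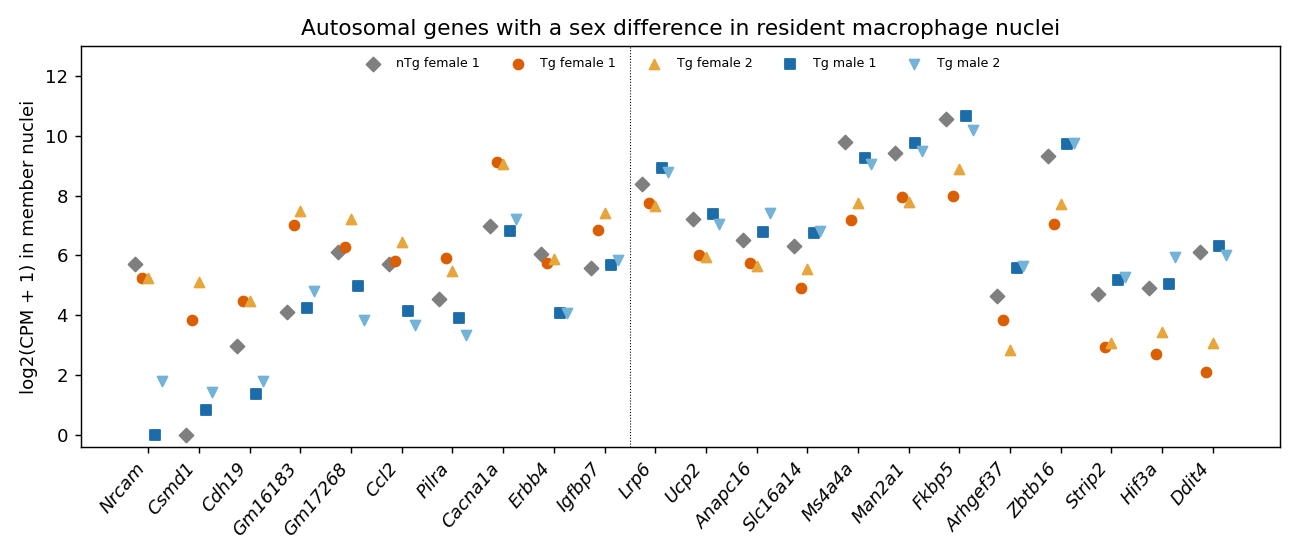
Level in the members, as log2(CPM + 1), of the 22 autosomal genes with an edgeR adjusted p under 0.05 between the female and male libraries labelled Tg, one point per library. Genes are ordered by their log2 difference, with those higher in females left of the dotted line. The grey diamonds of nTg female 1, which was not in the fit, lie nearer to the male libraries for 18 of 22 genes.

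The library labelled nTg female 1 sat with the males for most of these genes. It fell on the male side of the midpoint of the Tg group means for 18 of the 22 autosomal genes and on the female side for Ccl2, Gm17268, Nrcam and Erbb4. When it was added to the female group, 9 genes were called in place of 28, and the autosomal ones among them were Ccl2, Nrcam and Erbb4. With scrublet doublets removed, or with at least 500 genes per nucleus, 17 of the 28 calls remained, 11 of them autosomal. Among those lost without doublets were Gm17268 and Arhgef37 (adjusted p = 0.0709 each), Lrp6 (0.0714), Strip2 (0.0601), Ucp2 and Anapc16 (0.106 each), whose log2 differences were then 2.29, -2.28, -1.18, -3.04, -1.21 and -1.48. Leaving out 1 library at a time gave 55 to 143 calls, of which 19 to 26 were among the 28.

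Compared with all other nuclei, 1 of 18524 genes (0.0054%) had a different sex effect in the members. This was Gm16183, with an interaction of 2.49 on the log2 scale (SE 0.31, edgeR adjusted p = 0.0304), and 0 genes were called once doublets were removed (855 at an unadjusted p under 0.05). Cacna1a, its host gene, had an interaction of 1.82 (adjusted p = 0.0538). In the MHC class II or Ccr2 nuclei Gm16183 was at 0, 128, 238, 18.3 and 0 CPM, with both female Tg libraries above both male ones there as well (interaction -1.18, adjusted p = 0.985). Compared with the MHC class II or Ccr2 nuclei, 4 of 9506 genes (0.0421%) differed: Csmd1, Negr1, a neuronal adhesion molecule, Cacna1a and Cdh19. For Cacna1a the sex difference was smaller in the members than in the MHC class II or Ccr2 nuclei, which were at 74.2, 495, 603, 33.6 and 39.5 CPM. The calls of Csmd1 and Cdh19 were lost without Tg male 1, that of Negr1 without Tg female 1 or Tg male 2, and that of Cacna1a without either male library. DESeq2 and the removal of doublets each gave 0 calls in this comparison (33 and 452 genes at an unadjusted p under 0.05).

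The genes of resident macrophage function did not separate the sexes by this test. None of the 20 resident identity genes was called by edgeR or DESeq2 (median log2 difference -0.08, 2 genes under an unadjusted p of 0.05), nor any of 23 lineage transcription factors (median log2 difference 0.03, 2 genes under an unadjusted p of 0.05). The 12 complement genes beyond C1qa (median log2 difference -0.12, 0 genes under an unadjusted p of 0.05), the 19 efferocytosis and scavenger receptors (median log2 difference 0.07, 3 genes under an unadjusted p of 0.05) and the 20 lysosomal genes (median log2 difference -0.16, 0 genes under an unadjusted p of 0.05) had no call either. The 20 genes of iron and haem handling (median log2 difference 0.05, 1 gene under an unadjusted p of 0.05) and the 15 inputs through CSF1R and other growth factor receptors (median log2 difference 0.04, 1 gene under an unadjusted p of 0.05) likewise had none. The 11 growth factors and matrix genes that act on neighbours (median log2 difference 0.36, 2 genes under an unadjusted p of 0.05) included Pdgfc, a PDGF ligand, at 264, 397, 345, 566 and 699 CPM (log2 difference -0.79, SE 0.23, edgeR adjusted p = 0.26), and Igf1 at 255, 458, 267, 255 and 267 CPM (log2 difference 0.46, SE 0.26, edgeR adjusted p = 0.722). Pdgfc was higher in both male libraries and Igf1 in Tg female 1, without passing the threshold. With Tg female 1 left out, edgeR called the resident identity genes Apoe, Ccl24 and Selenop, the complement gene C1qc, the lysosomal genes Ctss, Grn and Lamp1, the iron carrier Trf and the receptors Igf1r and Il6ra lower in females. With Tg female 2 left out it called Igf1 and Timd4 higher, and with Tg male 1 left out Cd300lf, a receptor for lipids on dying cells. In these fits the lone library of a sex is assumed to vary like the pair of the other.

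Interferon response genes had mostly positive differences and no call. Of the 12 interferon response genes tested, 11 had a positive log2 difference (median 0.42, 4 genes under an unadjusted p of 0.05), against 50.9% of all genes, and edgeR and DESeq2 each called 0. edgeR called Oasl2 higher without Tg female 1, and Ifi213 without Tg male 1. The 14 inflammatory cytokine and NF-kB genes (median log2 difference 0.19, 4 genes under an unadjusted p of 0.05), the 10 genes of lipid-associated macrophages (median log2 difference -0.02, 1 gene under an unadjusted p of 0.05), the 14 clock genes (median log2 difference -0.05, 6 genes under an unadjusted p of 0.05) and the 11 immediate early and heat shock genes (median log2 difference 0.31, 2 genes under an unadjusted p of 0.05) had 0 calls with both tools, and leaving out a female library added Nfkbiz, Per1 or Per2. Of the 12 cell cycle genes (median log2 difference 0.13, 4 genes under an unadjusted p of 0.05), edgeR called 0 and DESeq2 called Ccnd3, a D-type cyclin, lower in females, as did edgeR without either female library.

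Cycling members were rare in every library. At least 2 of the proliferation genes Mki67, Top2a, Cdk1, Bub1, Cenpe and Diaph3 were found in 6, 4, 16, 17 and 7 members, or 1.77%, 1.09%, 4.35%, 3.70% and 1.51%. Tg female 2 and Tg male 1 were the highest, and the Clopper-Pearson intervals of these 2 (2.51% to 6.97% and 2.17% to 5.86%) overlapped that of nTg female 1 (0.652% to 3.81%). Ccna2 was found in 3, 1, 14, 6 and 5 members, and 1 nucleus held 49, 1, 24, 50 and 1 of the UMIs of its library. The 4 members with at least 10 Ccna2 UMIs had 1.06% to 1.97% of their UMIs from Ttn, Ryr2 and Trdn, just inside the limit of the rule, where the median member had 0%. Of the Ccna2-positive members, 0, 1, 2, 1 and 1 also had 2 of these genes.

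Genotype was not tested, because only 1 of the libraries analysed carried the nTg label, and its Ccna2 level went against that label. Of 7641 genes with at least 20 CPM on average, 12 (0.157%) were at least 2-fold above the mean of the Tg libraries and outside their range in nTg female 1, and 110 (1.44%) were below. The same count for each Tg library against the other 4 was 31 and 111, 159 and 105, 33 and 42, and 20 and 113, so nTg female 1 had the fewest higher genes of the 5 libraries, and Tg female 1 and Tg male 2 had more lower ones. Vcam1, an adhesion molecule, was at 63.7, 18.9, 27.2, 27.5 and 11.7 CPM, Emb, an adhesion and transporter partner protein, at 50.2, 32.2, 13.6, 13.4 and 10.9 CPM and Sorl1, a sorting receptor, at 47.3, 11.1, 3.71, 30.7 and 21.8 CPM. All 3 were highest in nTg female 1. Rundc3b was at 4.82, 49.9, 40.8, 36.9 and 39.4 CPM and Adgrl4, an adhesion receptor of endothelium, at 10.6, 42.1, 72.98, 48.7 and 63.7 CPM, lowest in nTg female 1. Flt1, a VEGF receptor of endothelium, was at 36.6, 135, 109, 66.02 and 133 CPM and Cyyr1 at 16.4, 64.3, 50.7, 41.7 and 44.4 CPM, and these 2 of the 10 endothelial markers were among the 110 lower genes. The summed endothelial markers in the members were also lowest in nTg female 1, at 336 CPM against 440.2 to 682 CPM, and their part in these differences was not tested. Csprs and C130026I21Rik, the first and second lowest against the Tg mean, were at 1.93, 3.33, 94.01, 3.14 and 26.8 and 10.6, 14.4, 303, 13.4 and 98.9 CPM. Their Tg means were set by Tg female 2 and Tg male 2, and the other 2 Tg libraries were close to nTg female 1.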

How the data were processed

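The authors deposited UMI counts per gene and barcode as whole-number matrices with no normalization, made with Cell Ranger 7.0.0 per the file headers; the submitters' processing notes name build mm10. Annotation, intron and strand counting and cell calling are not given in the sources used here. Members were chosen by the stated rule, and UMIs were summed per library. The sex test was edgeR 4.0.16 (quasi-likelihood, TMM scaling, filterByExpr) on the 4 libraries labelled Tg, with Benjamini-Hochberg adjustment over all genes tested; DESeq2 1.42.0 was an alternative. Interactions kept the library as a block. Descriptive log2 ratios used CPM with a pseudocount of 1. Nothing says that libraries came from separate animals, so p-values measure only the spread between these libraries, which may be technical. Doublets were scored with scrublet in scanpy 1.11.5 (expected rate 6%, or the top 5% of scores where under 0.5% were called, which applied to Tg female 2) and kept, removal being an alternative. Intervals are 95% and cover counting error only. The scripts were tested on simulated counts. Positions are from GENCODE M21 (GRCm38) and promoters from RefSeq.

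Named genes were the 10 highest and 10 lowest called genes with at least 10 CPM and no overlap of the sexes, the 20 leading genes against all other nuclei with at least 50 CPM, the extremes of the other comparisons, and in each list the called genes and the most abundant. The other called genes and further list genes were named after their values were seen. The members and lists were chosen with earlier results of these data known. Alternatives changed the rule, the filters, the tool, the scaling and the libraries, and are given in the closing section. The matrices of 3 libraries labelled nTg, identical to those of Tg libraries, were left out. Some genes that these choices name are not reported here.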

Additional observations from a re-analysis of the deposited data

Results flagged for a closer look

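5 genes had a sex difference in the members that departed from the one in the nuclei they were compared with, by the interaction test of edgeR. Against all other nuclei this was Gm16183, with an interaction of 2.49 on the log2 scale (SE 0.31, adjusted p = 0.0304); it was 16.4, 129, 179, 18.1 and 26.8 CPM in the members and 15.8, 13.3, 27.4, 15.7 and 15.2 CPM in the other nuclei, in the order nTg female 1, Tg female 1 and 2, then Tg male 1 and 2. The MHC class II or Ccr2 nuclei were at 0, 128, 238, 18.3 and 0 CPM, and the interaction against them was -1.18 (adjusted p = 0.985).

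Against the MHC class II or Ccr2 nuclei the interactions were 12.92 for Csmd1 (adjusted p = 0.000529), 2.77 for Negr1 (0.00655), -1.83 for Cacna1a (0.0185) and 6.10 for Cdh19 (0.0372). With 1 library left out, Csmd1 ranged from 3.49 to 14.53 and Cdh19 from 2.46 to 7.50, and both were lowest and not called without Tg male 1 (adjusted p = 1 and 0.930). Negr1 was at 1.98 without Tg female 1 (adjusted p = 0.106) and 2.20 without Tg male 2 (0.986), and Cacna1a at -1.94 without Tg male 1 (0.0900) and -1.73 without Tg male 2 (0.986). Csmd1 had 0, 12, 27, 1 and 2 UMIs in the members and 12, 0, 0, 68 and 0 in the MHC class II or Ccr2 nuclei, of which 25 of the 27 in Tg female 2 came from 1 nucleus, and both female Tg libraries of the latter class had 0. Cdh19 had 7, 19, 17, 2 and 3 and 8, 1, 3, 35 and 1 UMIs, and Negr1 35, 78, 27, 17 and 11 and 38, 70, 44, 66 and 67. The part of single nuclei in the fitted values of Csmd1 and Cdh19 was not tested.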

How the results depend on the processing

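The 28 sex calls became 17 without doublets, 17 at 500 genes per nucleus, 241 with no filter on low counts and 9 in 5 libraries without a genotype term, and 55 to 143 when 1 library was left out (143 without Tg female 1). The interaction calls against all other nuclei, 1 in the test reported, were 5 at 3 macrophage genes, 0 without doublets, 4 at 500 genes, 21 at cardiomyocyte transcripts under 1%, 8 with DESeq2, 9 with RLE scaling, 153 with no filter, 8 without F630028O10Rik in the rule (chosen after seeing the data) and 11 to 235 with 1 library left out. Against the MHC class II or Ccr2 nuclei the 4 became 2 at 3 macrophage genes, 0 without doublets (452 genes at an unadjusted p under 0.05), 0 with DESeq2 (33), 11 with no filter, 1 at 10 UMIs in every sum and 2 to 18 with 1 library left out. The female minus male difference in the Lyve1 subset share turned to 1.65 points at 3 macrophage genes and 0.633 without F630028O10Rik, and ranged from -3.34 to 2.53 with 1 library left out (2.53 without Tg female 2 and 2.48 without Tg male 2). The 94 genes that set members apart from MHC class II or Ccr2 nuclei became 60 with a pseudocount of 5 CPM, 35 at 50 CPM or more and 108 to 150 with 1 library left out; the 122 that set nTg female 1 apart became 31 at 50 CPM or more and 117 to 164. The cause of these shifts was not tested.

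The deviations of Tg female 1 and Tg male 1 from their sex means had r = 0.022 across 8000 genes, which are not independent replicates. With 2 libraries per sex this is a single comparison, so it cannot decide whether the numbers pair the samples. With the replicate number as a block 34 genes were called. Over 492 checks of single called genes, 411 kept the call, 81 lost it and 0 changed direction. Ccl2 and Nrcam kept it in every alternative that gave a value. Ddit4, Cacna1a, Gm16183, Zbtb16, Man2a1, Ms4a4a and Slc16a14 kept it in all of these but the 5 libraries without a genotype term. A gene with 0 UMIs, such as Itgax, could lie at up to 3.71 CPM in the shallowest library.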
